A study of Mus musculus with 20 samples.

Results

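RNA of 10 genes of the fibroblast growth factor (FGF) system was measured in the preoptic area of 20 male mice. They are the receptors Fgfr1, Fgfr2, Fgfr3 and Fgfrl1 and the ligands Fgf1, Fgf2, Fgf9, Fgf10, Fgf18 and Fgf22, chosen by symbol as 10 of the 25239 genes of the count table. The study asked what long housing with a female partner changes in preoptic gene expression, in control males and in males with an FGF receptor defect in the neurons that make gonadotropin-releasing hormone (GnRH). The comparisons between the genotypes were added here because the 4 groups allow them. Each mouse gave 1 bulk RNA-seq library, and the 4 groups held 5 mice each.

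All mice were males, paired on postnatal day 20 with a same-sex (SS) or an opposite-sex (OS) partner, and tissue was taken on postnatal day 320. The OS pairs could breed. dnFGFR mice were homozygous for a transgene that makes a truncated FGFR1 without its kinase domain, and the rat GnRH promoter drives it in GnRH neurons. Controls of matching background came from matings between heterozygous siblings of the line. The tissue held all cell types of the dissected region, while the transgene is meant to act in a sparse cell type.

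FGF ligands bind receptor tyrosine kinases of the cell surface together with heparan sulfate chains, and the activated receptors signal through the adaptor FRS2 and the ERK kinases. GnRH neurons depend on FGF signaling to form and to reach the preoptic area in the embryo, and in the adult brain the receptors are also found on glia. A receptor without its kinase pairs with intact receptors and blocks their signal.

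Library depth was 32353578 to 39871353 counted reads per mouse. All 10 genes passed the filter on low counts in each comparison. Gnrh1, which encodes the GnRH precursor and marks the targeted neurons, averaged 2.01 CPM (read counts scaled to a common library size) in control and 1.34 CPM in dnFGFR mice, a log2 difference of -0.58 (SE 0.15, adjusted p = 0.0657, edgeR quasi-likelihood test). It was called in 16 of 27 alternatives. Preoptic markers were present in every mouse, with a summed level of 71.2 to 114.2 CPM over 8 genes. Choroid plexus markers ranged from 30.0 to 2099.5 CPM between mice, and the sum of 5 striatal markers ranged from 1122.3 to 2234.9 CPM. Differences were called at an adjusted p under 0.1 over all genes tested, the threshold used in the study. The p-values for group differences set them against the spread between mice of a group. Control and dnFGFR mice shared no collection date, so a genotype difference cannot be told apart from one of date.

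The bases ahead of the start site are shown for 3 genes on which the results turn, Fgfrl1, which came nearest to the threshold for genotype over both housings without passing it, and Fgfr3 and Fgf10, which varied in opposite directions between mice. Each run covers the 200 bases from 250 to 51 bases before the RefSeq start on GRCm38.p6, read on the plus strand. Of the 10 genes, 8 had an entry in the RefSeq promoter table. Fgfr3 had 2 entries, and only the more upstream start is shown and searched. Capitals mark the GC box, searched as GGGCGG on both strands.
Fgfrl1, chr5:108693979-108694178: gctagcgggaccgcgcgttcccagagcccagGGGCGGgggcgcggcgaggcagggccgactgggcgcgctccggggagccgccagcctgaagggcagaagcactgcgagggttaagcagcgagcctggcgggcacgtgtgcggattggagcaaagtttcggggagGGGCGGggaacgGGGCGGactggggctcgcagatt
Fgfr3, chr5:33721474-33721673: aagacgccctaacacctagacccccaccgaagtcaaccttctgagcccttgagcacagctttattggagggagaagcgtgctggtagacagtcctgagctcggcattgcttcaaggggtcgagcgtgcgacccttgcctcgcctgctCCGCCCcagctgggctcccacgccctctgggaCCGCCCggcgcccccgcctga
Fgf10, chr13:118714449-118714648: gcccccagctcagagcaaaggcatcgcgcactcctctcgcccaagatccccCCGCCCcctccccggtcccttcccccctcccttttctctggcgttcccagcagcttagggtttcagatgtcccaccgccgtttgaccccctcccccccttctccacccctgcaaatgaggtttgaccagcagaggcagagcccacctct
Fgfrl1 held 3 GC boxes, Fgfr3 held 2 and Fgf10 held 1, against at least 1 in 24.6% of 32851 promoter windows of this length. CpG dinucleotides numbered 23 in the Fgfrl1 window, 14 in that of Fgfr3 and 8 in that of Fgf10, with a median of 4 over all windows. Neither TATAAA (in 9.14% of windows) nor CCGGAA, a core of sites for ETS factors (in 8.03%), was found in any of the 3 windows on either strand. Bases nearer the start than 51 were not searched, so a TATA box there would not have been seen.

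The levels of the 10 genes differed widely. To compare genes, CPM were divided by exon length from GENCODE M21. Fgf1, a ligand for all FGF receptors that lacks a signal peptide, was highest at 15.9 ± 2.26 CPM per kb (SD, n = 20). Fgfr3, a receptor of astrocytes, followed at 14.5 ± 1.72 CPM per kb, and Fgf1 was above it in 12 of 20 mice, so this pair was not separated.
Below them came Fgfr1 at 9.06 ± 0.521, Fgfr2 at 7.07 ± 1.15 and Fgfrl1 at 6.29 ± 0.893 CPM per kb. Fgfr1 was above Fgfr2 in 18 of 20 mice and Fgfr2 above Fgfrl1 in 15 of 20. Fgf9, a ligand made by neurons, averaged 4.52 ± 0.545 CPM per kb.
The other ligands were low. Fgf10, which acts mainly through the epithelial splice form of FGFR2, averaged 1.78 ± 0.428 CPM per kb, and Fgf18, of the Fgf8 subfamily, averaged 1.6 ± 0.344 CPM per kb. Fgf10 was above Fgf18 in 13 of 20 mice. Fgf22, a relative of Fgf10 that promotes presynaptic assembly, averaged 0.874 ± 0.123 CPM per kb, and Fgf2, the basic FGF, 0.111 ± 0.0392 CPM per kb from 10 to 48 counts per mouse. Fgf9 was above Fgf10, Fgf18 above Fgf22 and Fgf22 above Fgf2 in 20 of 20 mice.

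**Figure D1:**
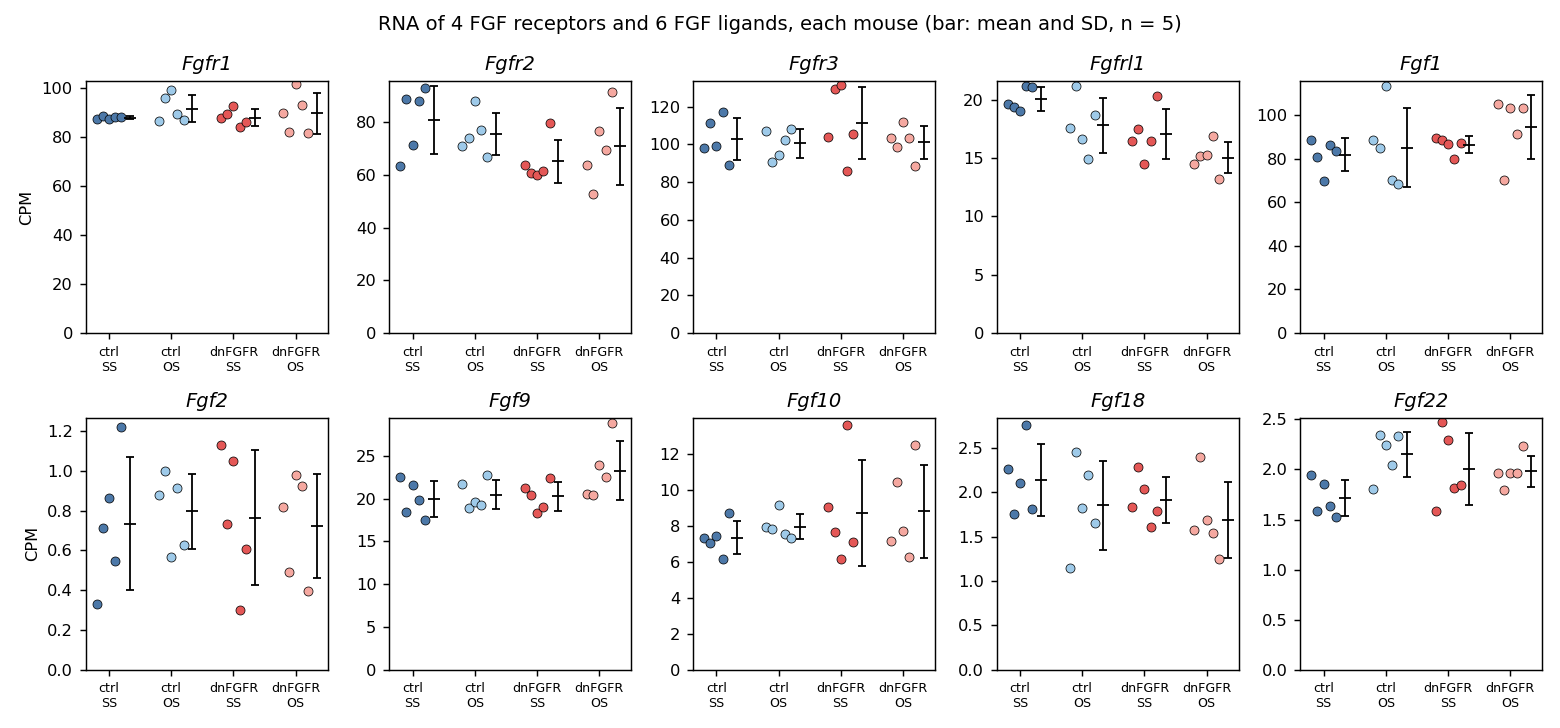
Level of each gene in CPM on a linear axis from 0, 1 point per mouse in the 4 groups, with the mean and SD of 5 mice beside the points. Fgfr1 lies between 81.6 and 102.0 CPM in all 20 mice, while Fgf10 reaches 13.6 CPM in 1 dnFGFR SS mouse against a highest control value of 9.14 CPM.

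Some members share exon sequence with other genes, and the library kit does not mark strand. Fgfr3 shared 13.9% of its GENCODE exon bases with G630022F23Rik, a symbol that is not in the count table. Fgf2 shared 9.4% with Nudt6, which had 113 to 207 counts per mouse. For Fgfr1, Fgfr2, Fgf10 and Fgf22 the shared part was 1.7% to 3.6%. How reads over several genes were counted is not given in the sources used here, so the level of Fgf2 in particular carries this uncertainty. For Fgfr3, reads of G630022F23Rik from the shared bases could have been counted as Fgfr3.

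Fgfr1 is the receptor from which the transgene was built. Its 5 control SS mice measured 87.6, 88.7, 87.4, 88.4 and 88.2 CPM, and the 5 control OS mice 86.6, 96.1, 99.3, 89.5 and 87.3 CPM. The dnFGFR SS mice measured 88.0, 89.6, 92.8, 84.1 and 86.1 CPM, and the dnFGFR OS mice 89.8, 82.2, 102.0, 93.2 and 81.6 CPM. All 4 groups overlapped, and the control SS mice were much the tightest, with a CV of 0.637% against 9.4% in dnFGFR OS mice. A CV that low is below the counting noise of their 2913 to 3560 counts per mouse, so it is given as a description. Over both housings the means were 89.9 ± 4.24 CPM in control and 88.9 ± 6.11 CPM in dnFGFR mice (SD, n = 10 each). The log2 difference was -0.016 (SE 0.0411, 95% interval -0.101 to 0.069, adjusted p = 0.937). Reads of the transgene that match the mouse gene would be counted as Fgfr1, and the species of its cDNA is not given in the sources used here. In bulk RNA, fewer cells of a type and less RNA per cell cannot be told apart.

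No member was called for genotype. Over both housings, 0 of 10 passed, where 1.33% of the 17445 genes tested did. In SS mice 0 of 10 passed, where 0.2% of all genes did, and in OS mice 0 of 10, where 0.0531% did. At an unadjusted p under 0.05, 2 of 10 members, Fgfrl1 and Fgfr2, were lower in dnFGFR mice over both housings, and 11.2% of all genes met that level, 5.84% as lower. In SS mice Fgfrl1 and Fgfr2 met it too, beside 8.63% of all genes, 4.51% as lower. In OS mice Fgfrl1 alone did, beside 7.02% of all genes, 3.93% as lower. The members' median log2 difference was 0.017, with 5 above 0 and 5 below, against -0.0004 over all genes.

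Fgfrl1 encodes a receptor that binds FGFs but has no kinase domain. Its control SS mice measured 19.6, 19.4, 19.0, 21.2 and 21.1 CPM, and its control OS mice 17.6, 21.2, 16.6, 14.9 and 18.7 CPM. The dnFGFR SS mice measured 16.5, 17.5, 14.5, 16.5 and 20.3 CPM, and the dnFGFR OS mice 14.5, 15.2, 15.3, 16.9 and 13.2 CPM. In SS mice only dnFGFR replicate 5 was within the control range, in OS mice 3 of the dnFGFR mice were, and 9 of 10 dnFGFR mice lay below the control median.
Over both housings the means were 18.9 ± 2.09 CPM in control and 16 ± 1.99 CPM in dnFGFR mice (SD, n = 10 each). The log2 difference was -0.24 (SE 0.0663, 95% interval -0.378 to -0.104), with an adjusted p of 0.103 by edgeR's quasi-likelihood test, just outside the threshold. The log2 difference was -0.23 in SS mice (adjusted p = 0.428, edgeR) and -0.25 in OS mice (adjusted p = 0.666, edgeR). The difference between these estimates, tested as the interaction, was -0.012 (SE 0.136, adjusted p = 0.995, edgeR).
The Fgfrl1 call depended on the setting. DESeq2 gave an adjusted p of 0.0384, and without dnFGFR SS replicate 5 edgeR gave 0.0379. After correction for the GC content and length of genes within each library, the log2 difference was -0.17 and the adjusted p 0.261. Over the 27 alternatives the log2 difference lay between -0.272 and -0.167.

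**Figure D2:**
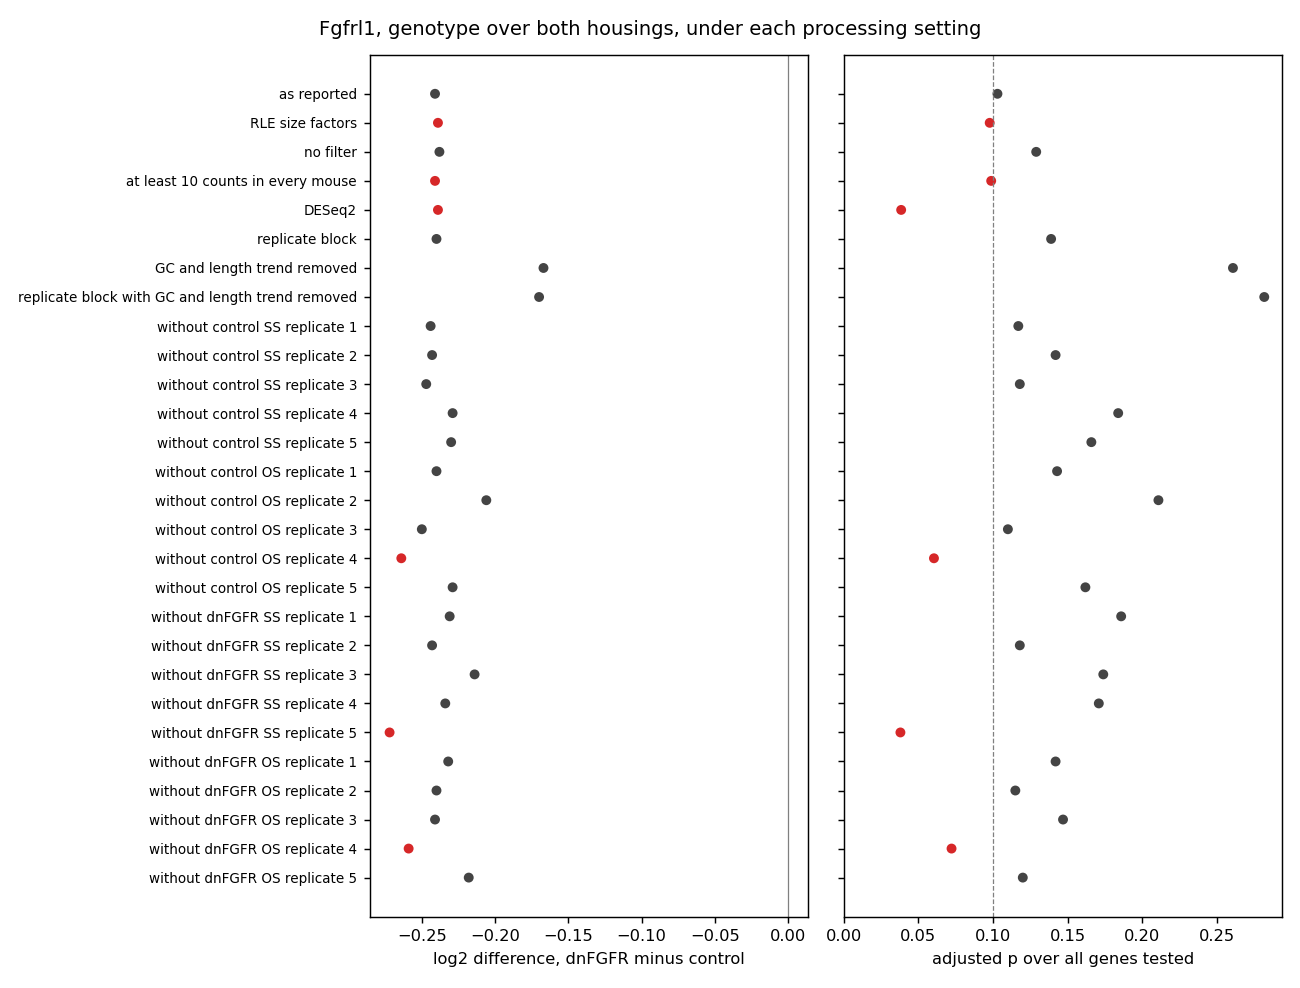
Fgfrl1, dnFGFR minus control over both housings, as the log2 difference (left) and the adjusted p over all genes tested (right, dashed line at 0.1), for the reported fit and 27 alternatives. All 28 estimates are below 0, and 6 alternatives, in red, are under an adjusted p of 0.1.

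Fgfr2 encodes a receptor found on oligodendrocytes and astrocytes. Its control SS mice measured 63.5, 88.7, 71.2, 87.9 and 92.8 CPM, and its control OS mice 71.1, 74.1, 88.1, 76.9 and 66.8 CPM. The dnFGFR SS mice measured 63.6, 60.8, 60.1, 61.4 and 79.6 CPM, and the dnFGFR OS mice 63.7, 52.7, 76.8, 69.6 and 91.5 CPM. In SS mice 3 dnFGFR mice lay below all controls, and in OS mice the dnFGFR range covered the control range. Over both housings the means were 78.1 ± 10.4 CPM in control and 68.0 ± 11.5 CPM in dnFGFR mice (SD, n = 10 each), a log2 difference of -0.20 (SE 0.0901, adjusted p = 0.401, edgeR). In SS mice the log2 difference was -0.31 (SE 0.106, adjusted p = 0.386, edgeR), and in OS mice -0.088 (SE 0.13, adjusted p = 0.899, edgeR). The interaction was 0.22 on the log2 scale (SE 0.178, adjusted p = 0.963, edgeR), so a difference between the housings was not shown. Among 2476 genes of like level, 92.7% had a smaller spread between mice of a group than Fgfr2.

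Markers of several cell types were also compared between the genotypes over both housings. Of all genes tested there, 1.33% were called and 11.2% met an unadjusted p under 0.05, 5.84% as lower. Of 6 oligodendrocyte markers none was called and 5 were lower in dnFGFR mice at an unadjusted p under 0.05, with a median log2 difference of -0.16. Their summed level ran from 5960.3 to 7301.9 CPM in control SS, 6231.2 to 8308.2 in control OS, 4652.7 to 6824.7 in dnFGFR SS and 4681.5 to 7407.4 in dnFGFR OS mice, with no marker at 0. Of 5 striatal neuron markers, Drd2 and Rgs9 were called lower, all 5 were lower at an unadjusted p under 0.05, and their summed levels ran from 1732.2 to 2234.9 CPM in controls and 1122.3 to 2051.0 CPM in dnFGFR mice. Cldn5, a tight junction gene, was the 1 of 5 endothelial and pericyte markers that was called lower (25.1 and 18.9 CPM, log2 difference -0.40, adjusted p = 0.0948, edgeR), and it was called in 10 of 27 alternatives. Of 4 oligodendrocyte precursor markers none was called and 3 were lower at an unadjusted p under 0.05, with a median log2 difference of -0.194. The 6 astrocyte markers did not fall with them. None was called, 1 was higher and 0 were lower at that level, with a median log2 difference of 0.023. Of 6 neuron markers none was called and 2 were higher at that level, Snap25 with the smallest p (log2 difference 0.19, adjusted p = 0.148, edgeR).
Within groups, no correlation of a member with a marker list passed at an adjusted p under 0.05, 0 of 110 pairs. Fgfr2 had a Pearson r of 0.63 with the mean astrocyte marker level (rho 0.459, adjusted p = 0.24, permutation test over 20 mice), and 0.342 without the 2 farthest mice. The mean marker level of oligodendrocytes had a Pearson r of 0.56 with Fgfr2 (rho 0.424, adjusted p = 0.244, permutation test over 20 mice) and 0.222 with Fgfrl1 (rho 0.317, adjusted p = 0.672, permutation test). With Fgfr1, whose log2 difference between genotypes was -0.016, r was higher, at 0.63 (rho 0.675, adjusted p = 0.24, permutation test). Fgfr1 had an r of 0.677 with the precursor markers (rho 0.726, adjusted p = 0.238, permutation test). The part of these cell types in the receptor values was not tested. Genotypes were also collected on different dates, with no date shared, so date and genotype cannot be told apart.

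Fgfr3 and the ligands gave smaller differences relative to their error. For Fgfr3, control SS mice measured 98.1, 111.5, 99.3, 117.0 and 88.8 CPM, control OS mice 107.1, 90.8, 94.6, 102.5 and 108.4 CPM, dnFGFR SS mice 104.1, 129.6, 131.3, 85.9 and 105.3 CPM, and dnFGFR OS mice 103.4, 98.5, 112.0, 103.2 and 88.3 CPM. All groups overlapped, and the 2 highest mice and the lowest were all dnFGFR SS. The log2 difference over both housings was 0.059 (SE 0.0699, adjusted p = 0.825, edgeR). Among the ligands the log2 differences over both housings ran from -0.147 for Fgf18 to 0.197 for Fgf10. The interval was narrowest for Fgf9, from -0.041 to 0.243, and widest for Fgf2, from -0.569 to 0.479, so only a large change in Fgf2 could have been seen. Fgf10 ranged from 6.16 to 9.14 CPM in control mice and from 6.17 to 13.6 CPM in dnFGFR mice, of which 3 were above 10 CPM.

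**Figure D3:**
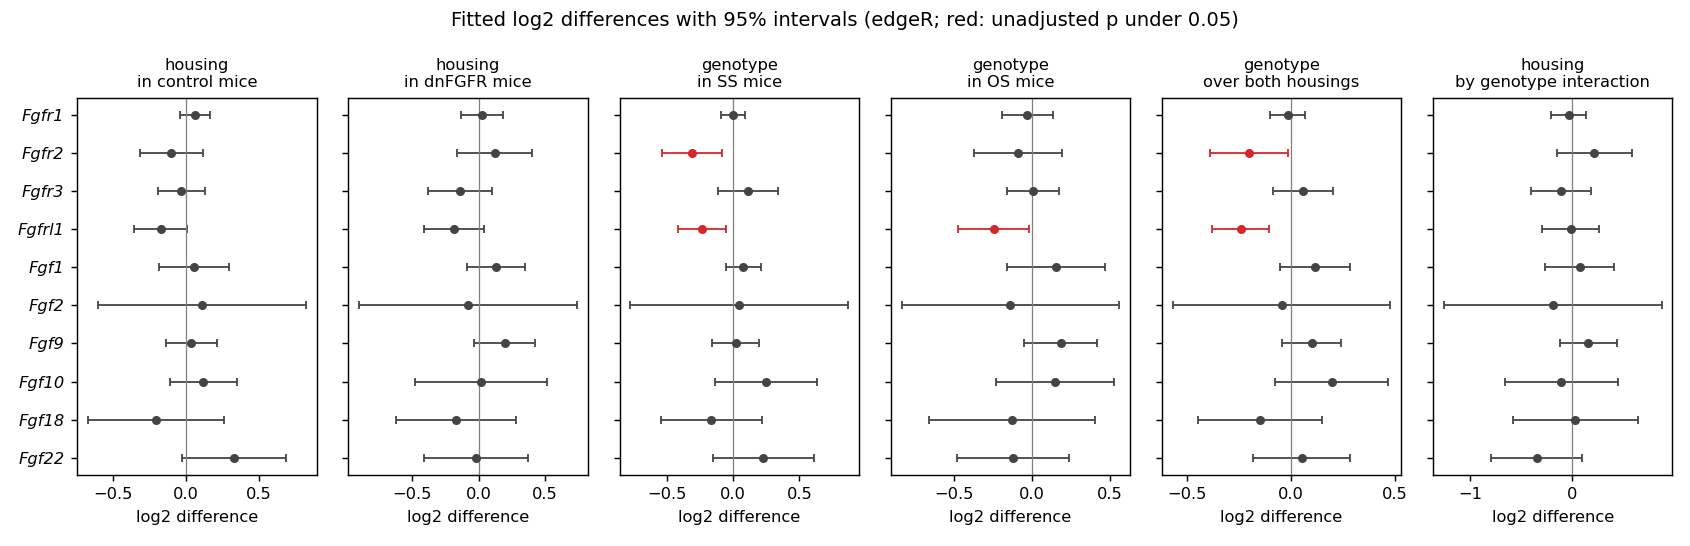
Fitted log2 difference of each gene with its 95% interval in 6 comparisons, dnFGFR minus control for genotype and OS minus SS for housing, with red marking an unadjusted p under 0.05. Only Fgfr2 and Fgfrl1 are red, Fgfrl1 in the 3 genotype panels and Fgfr2 in SS mice and over both housings.

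Housing gave no call among the members either. In control mice 0 of 10 passed, where 0.124% of 17004 genes did, and in dnFGFR mice 0 of 10, where 0.0% of 16944 genes did. The paper instead reported called genes for housing in dnFGFR mice and none in control mice at this threshold. It used DESeq2 after removing outlier samples, while all 20 mice were kept here. No member was at an unadjusted p under 0.05 in either genotype, against 7.2% and 6.72% of all genes. Fgfrl1 was lower in OS than in SS mice by a log2 difference of -0.173 in control (adjusted p = 0.708, edgeR) and -0.185 in dnFGFR mice (adjusted p = 0.768, edgeR), neither past the threshold. Fgf22 averaged 1.72 ± 0.183 CPM in control SS and 2.15 ± 0.225 CPM in control OS mice (SD, n = 5 each), with an adjusted p of 0.712 by edgeR, and the ranges of 1.53 to 1.95 and 1.81 to 2.34 CPM overlapped. Fgf9 averaged 20.3 ± 1.68 CPM in dnFGFR SS and 23.3 ± 3.45 CPM in dnFGFR OS mice (adjusted p = 0.753, edgeR), with 28.9 CPM in dnFGFR OS replicate 5. The housing difference did not differ detectably between genotypes for any member, 0 of 10 passing where 0.0% of all genes did, and none met an unadjusted p under 0.05, against 3.41% of all genes. The groups of no member were free of overlap, 0 of 10 in each of the 4 comparisons between groups of 5, where 1.63% and 1.42% of all genes were for housing in control and dnFGFR mice and 1.57% and 1.55% for genotype in SS and OS mice.

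No group difference in the make-up of the receptor RNA was shown. As shares of the summed CPM per kb of the 4 receptor genes, which need no scaling between libraries, Fgfr3 held 39.3% ± 3.53, Fgfr1 24.6% ± 1.46, Fgfr2 19.1% ± 2.8 and Fgfrl1 17.0% ± 2.1 (SD, n = 20). In SS mice the Fgfr2 share was 20.3% ± 2.47 in control and 17.1% ± 2.2 in dnFGFR mice (SD, n = 5 each, exact permutation p = 0.0635, two-sided). The Fgfrl1 share there was 18.9% ± 1.05 and 16.7% ± 2.18 (exact permutation p = 0.0714). None of the 16 tests of 4 genes in 4 comparisons passed, the lowest adjusted p being 0.36, and 0.00794 is the smallest p that all splits of 5 against 5 mice can give.

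**Figure D4:**
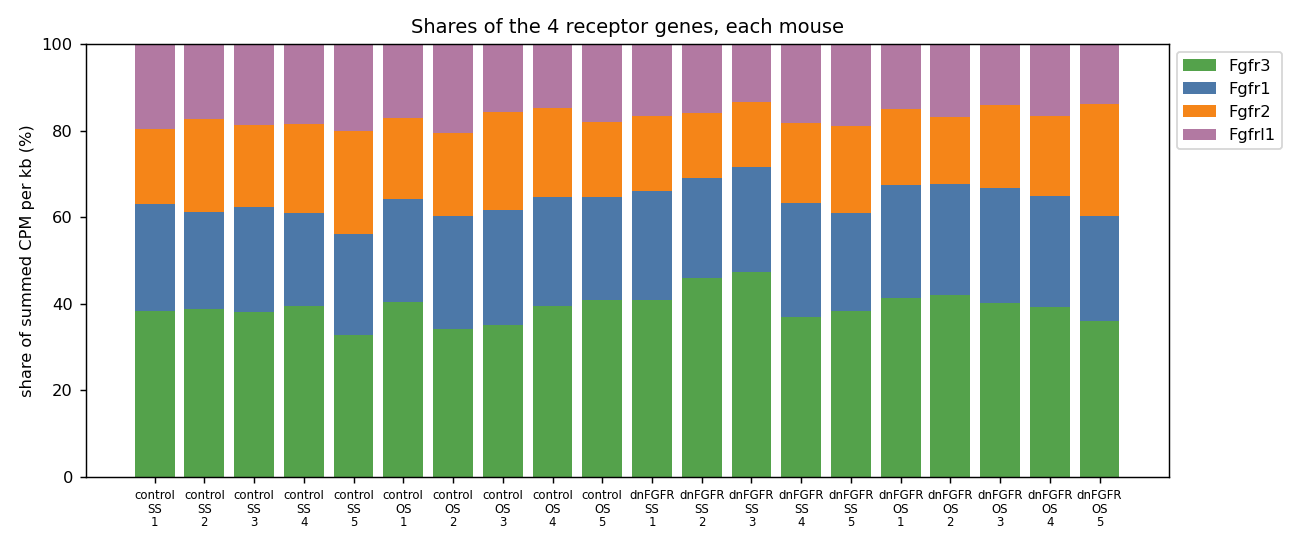
Share of each receptor gene in the summed CPM per kb, in percent, 1 stacked bar per mouse. Fgfr3 is the largest share in every mouse, from 32.7% to 47.3%, and Fgfrl1 lies between 13.5% and 20.5%.

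Fgfr3 and Fgf10 varied in opposite directions between mice. With log2 CPM centred on the group means, Pearson's r was -0.782 and Spearman's rho -0.749 over 20 mice (permutation p = 0.00029 and 0.00032, adjusted over 45 pairs p = 0.013 and 0.0144). It was the one pair of 45 that passed at an adjusted p under 0.05. The mouse with the most Fgf10, dnFGFR SS replicate 4 at 13.6 CPM, had the least Fgfr3, at 85.9 CPM. dnFGFR OS replicate 5 had 12.5 CPM of Fgf10 and 88.3 CPM of Fgfr3, and dnFGFR SS replicate 3 had 6.17 and 131.3 CPM.
Without the 2 mice farthest from the median of Fgfr3, r was -0.624 (permutation p = 0.00515, adjusted p = 0.232), so the passing call rests on those mice. Within the 10 control mice r was -0.814 (permutation p = 0.0103) and within the 10 dnFGFR mice -0.806 (permutation p = 0.00643), neither past the adjusted threshold, at 0.232 and 0.0723. Leaving out dnFGFR SS replicate 3, dnFGFR SS replicate 4 or dnFGFR OS replicate 5 gave an adjusted p of 0.0535, 0.0823 and 0.0562 (permutation). dnFGFR SS replicate 4 was collected in November and the other dnFGFR mice in May.
For markers of ependymal cells, which line the ventricles, neither correlation with these genes passed. Their mean level had an r of -0.781 with Fgf10 (rho -0.788, permutation p = 0.00246, adjusted p = 0.135 over 110 pairs) and 0.613 with Fgfr3 (rho 0.535, permutation p = 0.0246, adjusted p = 0.244). The smallest Pearson p of the 110 pairs was that of the same markers with Fgfr1 (r = 0.659, rho 0.737, permutation p = 0.00108, adjusted p = 0.119). The summed level of the 4 ependymal genes ran from 12.6 to 38.0 CPM between mice. Their part in the relation of Fgfr3 and Fgf10 was not tested.

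**Figure D5:**
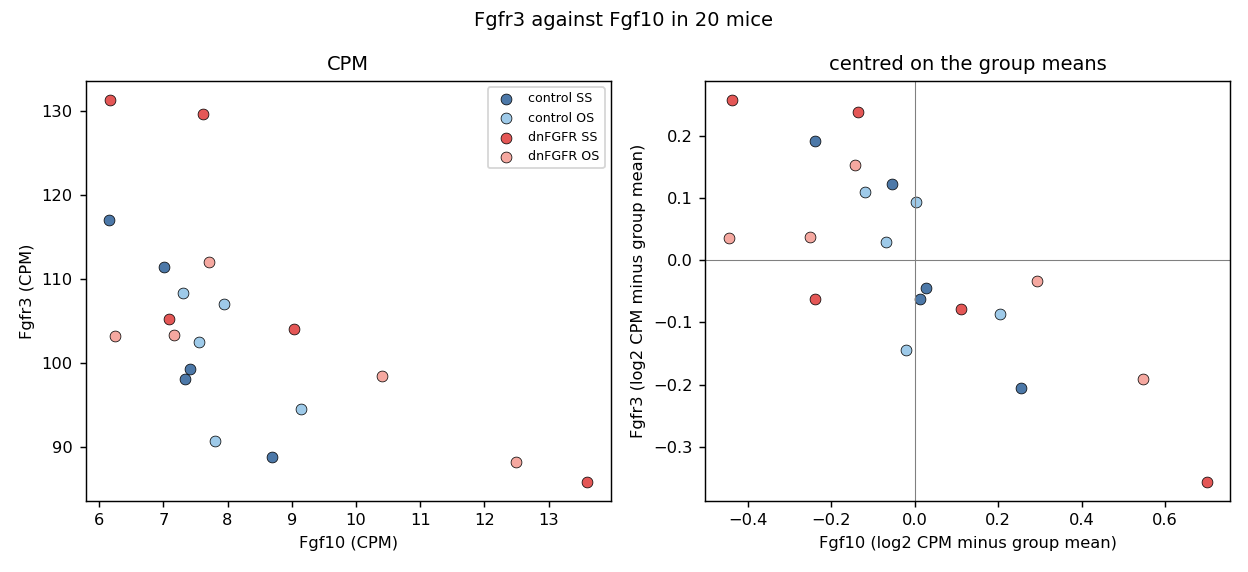
Fgfr3 against Fgf10, 1 point per mouse coloured by group, as CPM (left) and as log2 CPM minus the group mean (right). High Fgf10 goes with low Fgfr3 in both genotypes, and the 3 mice above 10 CPM of Fgf10 are all dnFGFR.

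By the likeness of group-centred log2 CPM over 20 mice, among 17444 other genes, the genes nearest to Fgfr1 were Lman2 (r = 0.834), Arhgap36 and Rxfp3 (0.813 each). Nearest to Fgfr2 were Olfml1 (r = 0.911), Pls1 (0.902) and Gpr37 (0.899), a receptor of myelinating oligodendrocytes. Nearest to Fgfr3 were Prodh (r = 0.85), Zgpat (0.844) and 1700012B09Rik (0.835). These are the highest of many correlations and are given as a description.

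Tested genes within 500 kb of the members were not called either. On GRCm38, Fgfrl1 lies on chromosome 5 from 108694229 to 108706950, Fgfr1 on chromosome 8 from 25518759 to 25575718, Fgfr2 on chromosome 7 from 130162451 to 130266808 and Fgfr3 on chromosome 5 from 33721724 to 33737068. For genotype over both housings, 0 called genes lay within 500 kb of any of the 10 members. The windows held from 1 tested gene for Fgf10 to 44 for Fgf22. Over all 17445 genes tested 1.33% were called, so 0 calls in such windows says little. The nearest called gene to Fgfrl1 was Galnt9 at 1837.1 kb and to Fgfr1 Adam18 at 844.0 kb. On chromosome 5 2.64% of 1060 tested genes were called, and on chromosome 8 3.44% of 901, both above the 1.33% over all genes.

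In the rest of the pathway calls were few, as they were over all genes. Of all genes tested, 1.33% were called for genotype over both housings and 0.0% to 0.2% in each other comparison. So 0 calls in a list of this size says little about the list. Of 13 other receptor and secreted ligand genes 8 were tested over the 20 mice and 0 called in any comparison, with Fgf4, Fgf6, Fgf8, Fgf20 and Fgf21 too low to test. Fgf15, an endocrine FGF of the intestine and embryonic brain, had the smallest p for genotype over both housings at 0.122 and 0.372 CPM in control and dnFGFR mice (log2 difference 1.56, SE 0.437, adjusted p = 0.112, edgeR). It ranged from 0.0 to 0.672 CPM over all mice. Fgf15 passed the filter on low counts only in comparisons holding all dnFGFR mice, where it was higher, so its difference is given as a description. Fgf5 had the smallest p for housing in dnFGFR mice (adjusted p = 0.783). Among the 4 intracellular FGF homologous factors, which bind sodium channels, 0 were called and Fgf12 had the smallest p in both (adjusted p = 0.598 for genotype and 0.729 for housing).
Of 20 co-receptors and binding proteins 0 were called. Sdc4, a syndecan, came nearest for housing in control mice, with means of 49.5 (SS) and 66.1 CPM (OS), a log2 difference of 0.42 (SE 0.0836, adjusted p = 0.102, edgeR), and it was called in 6 of 19 alternatives. Gpc2, a glypican, was at 2.66 and 1.77 CPM in control and dnFGFR mice (log2 difference -0.60, SE 0.169, adjusted p = 0.112, edgeR), and Gpc5 had the smallest p for housing in dnFGFR mice (adjusted p = 0.726).
Of 18 heparan sulfate enzymes 1 was called for genotype over both housings. Ndst3, which sulfates the heparan chains that FGFs bind, measured 15.5, 14.9, 16.2, 12 and 17.4 CPM in control SS and 17.1, 14, 16, 13.5 and 15.6 CPM in control OS mice. It measured 21.6, 18.4, 17.1, 22.6 and 13.2 CPM in dnFGFR SS and 19.9, 22.2, 24.8, 21.3 and 21.3 CPM in dnFGFR OS mice. In OS mice every dnFGFR mouse was above every control mouse, and for 1.55% of all genes the groups did not overlap there. In SS mice dnFGFR replicates 3 and 5 lay within the control range. Within a housing Ndst3 was not called, with an adjusted p of 0.132 in OS and 0.573 in SS mice (edgeR). Over both housings the mean rose from 15.2 CPM in control to 20.2 CPM in dnFGFR mice. The log2 difference was 0.41 (SE 0.0874, adjusted p = 0.023, edgeR), and Ndst3 was called in 27 of 27 alternatives. For housing, Hs3st1 had the smallest p in control mice, with means of 13.2 (SS) and 10.4 CPM (OS) (log2 difference -0.34, adjusted p = 0.183, edgeR), and Hs6st1 in dnFGFR mice (adjusted p = 0.726).
Of 21 adaptors and signal transducers 0 were called, with Crkl for genotype (adjusted p = 0.427) and Frs3 for housing in dnFGFR mice (adjusted p = 0.729) at the smallest p. Of 12 feedback inhibitors and targets 11 were tested and 0 called. Among them Etv5, an ETS factor induced by FGF signals, was at 77.1 CPM in control and 87.3 CPM in dnFGFR mice (log2 difference 0.18, SE 0.0626, adjusted p = 0.229, edgeR). Spred1, an inhibitor of ERK signaling, had the smallest p for housing in dnFGFR mice (adjusted p = 0.785). Dusp6, which dephosphorylates ERK, was at 33.0 and 32.2 CPM in control and dnFGFR mice (log2 difference -0.035, SE 0.0749, adjusted p = 0.919, edgeR).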

How the data were processed

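RNA of the dissected preoptic area of 20 mice was sequenced. Per the labels and the methods, reads were aligned with HISAT2 to GRCm38, and the authors made counts by RefSeq gene with Rsubread, deposited raw for 25239 genes. Settings for strand and for shared reads are not given in the sources used here. Another 20 columns of the table belong to no sample described and were not used. Groups came from the sample titles, and collection dates from the study's sample list. Here, edgeR 4.0.16 in R 4.3.3 (TMM, filterByExpr, quasi-likelihood test, Benjamini-Hochberg) was fitted to all genes of each comparison's mice, and was tested on simulated data. Log2 CPM used a prior count of 2. Exon lengths came from GENCODE M21, in place of the RefSeq lengths planned, and promoters and positions from RefSeq GRCm38.p6. Shares were compared by exact permutation, and correlations with 100000 within-group resamples (Python 3.11.15). Alternatives were DESeq2 1.42.0, RLE size factors, testing without a filter, a minimum of 10 counts, 1 fit of 4 groups, a replicate block, GC and length correction, same-date mice and each mouse left out. Correlations within a genotype, without the mice highest in Fgf10 and without each mouse were added after seeing the data. Named genes were the members, the called or smallest-p gene of each pathway list, the 3 nearest genes of each kinase receptor and called neighbours; Dusp6, Gnrh1, Sdc4, Hs3st1, Snap25 and the called markers Drd2, Rgs9 and Cldn5 were named after their values were seen. The members and lists were chosen with earlier results of these data known. No pairing of mice by replicate number was seen.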

Additional observations from a re-analysis of the deposited data

Results flagged for a closer look

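Over 40 sets of 5 mice, 10 genes in 4 groups, 2 mice stood apart from the rest of their group by Dixon's criterion, which flags about 1 group in 20 by chance. Fgfr2 in dnFGFR SS replicate 5 was at 79.6 CPM, against 60.1 to 63.6 CPM in the other 4 mice. Without it the log2 difference between genotypes in SS mice was -0.397 (adjusted p = 0.161, edgeR). Fgf1 in dnFGFR SS replicate 4 was at 79.8 CPM, against 86.8 to 89.5 CPM in the others. Without it the log2 difference in SS mice was 0.106 (adjusted p = 0.624, edgeR).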

How the results depend on the processing

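The count of members called for genotype over both housings was 0 as reported and 1, always Fgfrl1, with RLE size factors (adjusted p = 0.0978), with at least 10 counts in every mouse (0.0988) and with DESeq2 (0.0384). Leaving out each mouse gave 0 to 1, with 1 without control OS replicate 4, dnFGFR SS replicate 5 or dnFGFR OS replicate 4 (adjusted p = 0.0604, 0.0379 and 0.0722, edgeR). The count of correlated pairs was 1 as reported, 0 without the 2 farthest mice, 0 within control mice, 3 within dnFGFR mice, 0 without the 3 mice above 10 CPM of Fgf10 (r of Fgfr3 and Fgf10 -0.617), and 0 to 2 with each mouse left out. The 3 pairs within dnFGFR mice did not include Fgfr3 with Fgf10, whose adjusted p there was 0.0723 (permutation). Counts of members called were 0 in the other comparisons under all alternatives run, as were receptor shares. Of 1280 member estimates under alternatives 93 changed sign, and none of those was called. With the replicate block, the Fgfrl1 log2 difference was -0.24 (adjusted p = 0.139), and with the block and the GC and length correction -0.17 (adjusted p = 0.282, edgeR). The block correlations of 30 pairs of same-numbered mice ran from -0.355 to 0.375, 4 of them over 0.1. No pairing by number was seen, though a weak one could be missed. Gpc2, not called as reported, was called in 5 alternatives (lowest adjusted p 0.0258). Fgf15, near the floor at 0.0 to 0.672 CPM, passed the filter through the dnFGFR mice, where it was higher. Its calls in 5 alternatives are therefore not read as results. Over all genes, counts called ran from 0 to 157 for housing in control mice (21 as reported, 157 with DESeq2), 0 to 5 for housing in dnFGFR mice, 21 to 225 for genotype in SS mice (34 as reported, 225 with DESeq2), 3 to 78 for genotype in OS mice (9 as reported, 78 with DESeq2) and 0 to 1 for the interaction. Those for genotype over both housings ran from 176 to 425, and the split of 95 higher and 137 lower in dnFGFR mice became 183 and 157 with the GC and length correction. Housing within shared dates left few mice, and Fgf2, Fgf18 and Fgf22 rest on 10 to 111 counts per mouse.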
